A study of Arabidopsis thaliana with 48 samples.

Results

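The non-hair epidermis of the untreated Arabidopsis thaliana root was compared with the whole root at the level of polysome-bound mRNA. Both groups were roots of 6-day-old Col-0 seedlings, grown at 22 °C in continuous light, before any brassinolide (BL), a brassinosteroid hormone, was added (0 h). In the pGL2 line the promoter of GL2 drove a FLAG-tagged ribosomal protein, so the RNA came from ribosomes of cells in which that promoter was active, which the labels call epidermis. In the 35S line the constitutive 35S promoter drove the tag, and the labels call the sample whole root, so the 35S libraries also hold non-hair epidermis. Tagged polysomes were pulled down with the RNA bound to them. The comparison used 4 of the 48 libraries of the series, 2 of pGL2 and 2 of 35S, chosen by their labels. The series as a whole followed 8 lines after 0, 3 and 8 h of 100 nM BL, 2 libraries a group. Among the 5 Col-0 lines each tag promoter stands for one labelled line, so cell type and line cannot be told apart. Nothing in the labels says whether the 2 libraries of a group came from separate cultures, beyond the design text calling them biological repetitions.

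The root epidermis of Arabidopsis is made of alternating files of hair cells and non-hair cells. In non-hair cells a complex of the MYB factor WER, a bHLH factor (GL3 or EGL3) and the WD-repeat protein TTG1 switches on GL2, a homeodomain factor of the HD-ZIP IV class that represses the hair programme. The small MYB protein CPC is made in non-hair cells and moves into neighbouring cells, where it lets hairs form. The epidermis faces the soil, so it is a site where ions enter the symplast. It is bounded by a cell wall and a thin surface layer of lipids, and it carries receptors that detect microbes.

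Of 20995 genes tested, 4838 (23.0 percent) were higher in pGL2 and 5431 (25.9 percent) were lower, 48.9 percent in either direction, by edgeR's quasi-likelihood test with Benjamini-Hochberg (BH) adjustment over all genes, at an adjusted p under 0.05. At least 2-fold changes among them came to 2851 higher genes (13.6 percent) and 4271 lower genes (20.3 percent). Every count below is to be read against these shares. The gene lists and families were chosen with earlier results of these data known. An excess of a list over these shares is therefore a description and was not tested. In 7727 genes (36.8 percent) both pGL2 libraries lay above both 35S libraries, and in 9370 (44.6 percent) both lay below. Levels are CPM, read counts relative to library size after TMM scaling, given as replicate 1 and replicate 2 of each group. Changes are fitted log2 changes of pGL2 over 35S with a standard error (SE). The SE was derived from the test, as the absolute log2 change divided by the square root of the F statistic. CPM is not divided by gene length, so levels are compared within a gene only. The 4 libraries held 33209228 and 27155311 counts (pGL2) and 33100211 and 28105128 counts (35S). The median change of all genes was -0.12 and moved to -0.28 with upper quartile scaling, under which 38.03 percent of the calls were higher against 47.1 percent with TMM and 51.9 percent with RLE scaling. Small changes therefore depend on the scaling. "Higher" and "lower" are used only of genes that passed. In each gene called higher or lower below whose 4 CPM values are printed, the groups did not overlap.

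Of the 4 markers of non-hair cells 3 were enriched in the fraction, and WER did not pass. GL2 (AT1G79840, chromosome 1, 30036956 to 30041440, TAIR10) was at 114 and 57.9 CPM in pGL2 and at 3.21 and 3.26 CPM in 35S, a change of 4.73 ± 0.39 (adjusted p = 9.9e-11). Both pGL2 libraries lay far above both 35S libraries, though they differed from each other by more than any other marker of this list. MYB23, a MYB factor that overlaps WER in function, was at 19.8 and 13.3 CPM in pGL2 against 3.52 and 3.82 CPM in 35S (2.17 ± 0.40, adjusted p = 5.62e-05). TTG2, a WRKY factor that acts downstream of the same complex, was at 14.5 and 12.0 CPM in pGL2 against 2.89 and 2.98 CPM in 35S (2.17 ± 0.45, adjusted p = 0.000184). WER itself was at 59.8 and 55.4 CPM in pGL2 against 40.3 and 41.7 CPM in 35S, with no overlap of the groups but a change of 0.49 ± 0.31 that did not pass (adjusted p = 0.192). Against the mean of the root cap (pBRN2), endodermis (pSCR) and stele (pSHR) fractions at 0 h, which leaves the 35S libraries out, WER was higher by 3.04 ± 0.24 (adjusted p = 3.65e-12). Of the 14 genes of the wider cell fate network, 5 were higher and 1 was lower. CPC was at 25.9 and 33.6 CPM in pGL2 against 12.8 and 12.2 CPM in 35S (1.25 ± 0.33, adjusted p = 0.00255), and TTG1 was higher by 0.51 ± 0.15 (adjusted p = 0.00678). JKD, a zinc finger factor that acts from the cortex on epidermal patterning, was the lower gene, at 1.51 and 2.21 CPM in pGL2 against 12.8 and 13.4 CPM in 35S (-2.82 ± 0.79), a call lost without replicate 1 of pGL2. GL3, EGL3, TRY, ETC1, MYC1, SCM and ZFP5 did not pass. The network had 10 higher and 3 lower genes when the 4 libraries were fitted alone, and 8 and 2 with the Col-0 libraries of 0 h alone. Counts of 2 libraries cannot separate more cells of a type from more ribosome-bound RNA per cell.

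Promoter windows of 250 bases, ending 1 base before the RefSeq gene start (genome TAIR10.1, whose nuclear chromosomes are those of TAIR10), are shown for the gene whose promoter drove the tag, for the protoderm gene with the largest change, and for the protoderm gene that held an L1 box. The L1 box, TAAATGCA or TAAATGTA on either strand, is the motif known to be bound by HD-ZIP IV factors, and capitals mark it where it was found.
GL2 (chr1:30036706-30036955, plus strand): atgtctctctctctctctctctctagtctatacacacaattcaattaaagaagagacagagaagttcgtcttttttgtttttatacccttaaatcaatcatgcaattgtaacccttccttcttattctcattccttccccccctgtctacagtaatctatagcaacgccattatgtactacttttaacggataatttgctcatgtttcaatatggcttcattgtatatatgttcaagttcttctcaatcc
PDF1 (chr2:17827649-17827898, minus strand): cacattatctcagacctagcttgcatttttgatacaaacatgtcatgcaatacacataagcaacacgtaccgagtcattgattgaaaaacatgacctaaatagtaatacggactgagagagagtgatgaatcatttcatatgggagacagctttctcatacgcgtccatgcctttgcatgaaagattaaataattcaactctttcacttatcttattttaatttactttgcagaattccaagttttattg
ANL2 (chr4:304613-304862, minus strand): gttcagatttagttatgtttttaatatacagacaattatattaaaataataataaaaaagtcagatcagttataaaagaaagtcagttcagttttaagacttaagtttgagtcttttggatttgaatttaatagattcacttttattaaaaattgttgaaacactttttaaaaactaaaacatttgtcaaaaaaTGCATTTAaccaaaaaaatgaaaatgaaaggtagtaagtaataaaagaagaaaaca
The ANL2 window holds the reverse complement TGCATTTA, from 56 to 49 bases before the start. Such a box was present in 1232 of 27443 windows of protein-coding genes (4.49 percent), in 222 of 4755 windows of higher genes (4.67 percent) and in 250 of 5329 windows of lower genes (4.69 percent). None of the 15 higher genes named below for the largest change and 1 of the 8 protoderm genes tested held it in this window. RefSeq starts can differ from those of the counted gene models, as 51.4 percent of 25708 nuclear loci shared a start or end exactly. The counted model of PDF1 starts downstream of its RefSeq start. Bases just before the start of that model were therefore not searched. ANL2 was at 12.7 and 15.9 CPM in pGL2 against 9.23 and 10.4 CPM in 35S and did not pass (0.54 ± 0.41).

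Markers of the inner tissues were depleted relative to 35S. All 3 cortex markers (AT1G62500, AT1G62510 and AT1G09750) were lower, with a median change of -2.92. None of these 3 passed in either direction against the mean of the pBRN2, pSCR and pSHR fractions at 0 h. Among 10 endodermis markers 9 were lower (median -3.54). CASP1, a scaffold protein of the Casparian strip, was at 28.4 and 39.1 CPM in pGL2 against 482 and 369 CPM in 35S (-3.66 ± 0.90, adjusted p = 0.00154). SCR, the GRAS factor of the endodermis, was at 6.53 and 9.88 CPM in pGL2 against 22.4 and 21.4 CPM in 35S and did not pass (-1.42 ± 0.76, adjusted p = 0.123). Of 21 stele markers 20 were lower (median -3.14), among them the phloem sucrose carrier SUC2 at 0.997 and 0.82 CPM in pGL2 against 17.8 and 13.0 CPM in 35S and the xylem cysteine protease XCP2 at 7.91 and 9.51 CPM in pGL2 against 148 and 147 CPM in 35S. The exception was WOL, a cytokinin receptor, which was higher at 44.9 and 50.9 CPM in pGL2 against 18.6 and 20.1 CPM in 35S (1.31 ± 0.22, adjusted p = 1.19e-05). Summed over the list, endodermis markers held 70.6 and 110.1 CPM in pGL2 against 1090 and 923 CPM in 35S, and all 10 were higher in replicate 2 than in replicate 1 of pGL2, whereas 48.8 percent of 17299 genes over 1 CPM were. Cortex markers followed the same order in 3 of 3 cases and root hair markers in 20 of 20, stele markers in 15 of 21 and root cap markers in 3 of 7. None of the 4 non-hair epidermis markers did, and their summed level was 208 CPM in replicate 1 and 139 CPM in replicate 2 of pGL2. The part of this difference between the pGL2 libraries in other results was not tested.

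Root cap markers were lower in 6 of 7 cases (median -1.85), with the cellulase gene CEL5 at 5.54 and 6.11 CPM in pGL2 against 259.5 and 249 CPM in 35S (-5.45 ± 0.35, adjusted p = 9.98e-13). Against the mean of the other 3 fractions at 0 h, which include the root cap fraction, 2 of the 7 were lower and 2 were higher. Of 20 root hair markers 14 were lower (median -1.40), 7 without replicate 1 of pGL2. The bHLH factor RSL4, which drives hair growth, was at 2.06 and 2.29 CPM in pGL2 against 6.39 and 5.42 CPM in 35S (-1.44 ± 0.34, adjusted p = 0.000861), and the hair expansin EXPA7 was at 9.66 and 13.9 CPM in pGL2 against 26.6 and 26.7 CPM in 35S (-1.18 ± 0.29, adjusted p = 0.00118). In contrast, 3 genes known for their role in hair growth were higher. RHD2, the NADPH oxidase of growing hairs, was at 54.5 and 60.2 CPM in pGL2 against 16.6 and 17.6 CPM in 35S (1.75 ± 0.27, adjusted p = 3.76e-06). The wall leucine-rich extensin LRX2 was at 22.2 and 32.0 CPM in pGL2 against 3.60 and 7.02 CPM in 35S (2.36 ± 0.52, adjusted p = 0.000423) and the cellulose synthase-like CSLD3 was at 71.1 and 86.1 CPM in pGL2 against 31.5 and 37.1 CPM in 35S (1.19 ± 0.28, adjusted p = 0.000921). None of the 20 root hair markers was lower against the mean of the other 3 fractions, and 8 were higher. Genes of the light-harvesting complexes, marks of green tissue, summed to 25.9 and 35.4 CPM in pGL2 and to 58.4 and 59.6 CPM in 35S. Of these 20 genes 5 were lower, near the 25.9 percent of all genes (8 with upper quartile scaling, 11 with the 4 libraries alone). That count was smaller without any 1 of the 4 libraries. At 0 h the median change of these genes was -1.02, against -0.12 for all genes. After 3 and 8 h of BL 16 and 18 of the 20 were lower, against 28.1 and 29.5 percent of all genes.

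**Figure D1:**
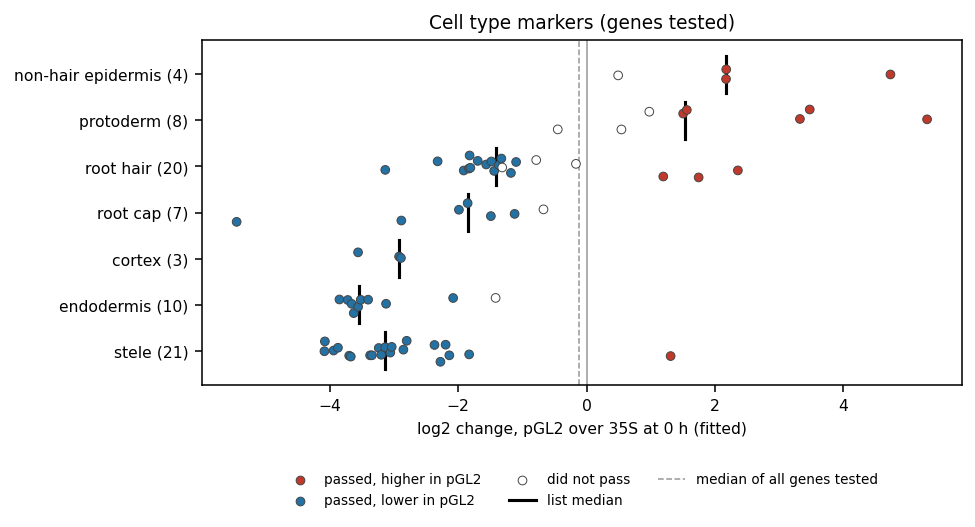
Fitted log2 change of pGL2 over 35S at 0 h (x axis) for each tested marker gene, grouped by cell type (y axis, number tested in parentheses). Filled points passed, open points did not, black bars are list medians and the dashed line is the median of all genes. Non-hair epidermis and protoderm lie to the right, with medians of 2.17 and 1.53, and endodermis and stele to the left, with medians of -3.54 and -3.14.

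The 15 higher genes with the largest change, among genes that met set conditions, included 5 genes of lipid transfer proteins or the protoderm. The conditions were a RefSeq symbol, 8 CPM or more in the higher group, 4 counts or more in every library, and groups apart. They also held for the 15 lower genes below, so genes outside them can have larger changes. LTP6 was at 9.70 and 6.88 CPM in pGL2 against 0.209 and 0.157 CPM in 35S (5.46 ± 0.64) and LTP3 at 19.2 and 17.2 CPM in pGL2 against 0.808 and 1.06 CPM in 35S (4.28 ± 0.51). These proteins bind lipids outside the cell. LP1 and LTP2, of the same family, were at 45.0 and 23.9 CPM in pGL2 against 1.85 and 1.85 CPM in 35S (4.22 ± 0.72) and 20.7 and 16.1 CPM in pGL2 against 1.15 and 1.32 CPM in 35S (3.90 ± 0.53). PDF1 (AT2G42840, chromosome 2, 17826116 to 17827536), a proline-rich protein of the outermost cell layer, was at 28.7 and 24.3 CPM in pGL2 against 0.678 and 0.658 CPM in 35S (5.30 ± 0.71, adjusted p = 6.33e-07). These 5 genes stood at 45.0 CPM or less in pGL2 and at 1.85 CPM or less in 35S, with no overlap of the groups. THAS1, thalianol synthase, was at 739 and 975 CPM in pGL2 against 58.4 and 59.8 CPM in 35S (3.86 ± 0.51). IOS1, a receptor kinase of the response to oomycetes, was at 227 and 269 CPM in pGL2 against 14.9 and 21.9 CPM in 35S (3.75 ± 0.62). CKX4, a cytokinin oxidase, was at 32.5 and 38.2 CPM in pGL2 against 2.92 and 2.10 CPM in 35S (3.81 ± 0.60), and PME44, a pectin methylesterase, was at 12.9 and 26.9 CPM in pGL2 against 1.15 and 1.0963 CPM in 35S (4.14 ± 0.57). CAD9, CYP716A2 and GSTU21 also belonged to this set, with changes of 4.36, 4.19 and 3.97. The 15 changes ran from 3.75 to 5.78.

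Genes of signalling peptides were among the most depleted. The peptide genes CLE5, CLE2, RGF2 and RGF3 were among the 15 lower genes with the largest change. RGF3, whose peptide maintains the root stem cell niche, was at 1.75 and 2.05 CPM in pGL2 against 64.5 and 81.2 CPM in 35S (-5.26 ± 0.48, adjusted p = 6.53e-10), and RGF2 was at 0.516 and 0.697 CPM in pGL2 against 39.2 and 32.7 CPM in 35S (-5.89 ± 0.63). CLE2 was at 1.69 and 1.11 CPM in pGL2 against 48.1 and 38.6 CPM in 35S (-4.94 ± 0.43) and CLE5 at 0.241 and 0.205 CPM in pGL2 against 18.1 and 17.4 CPM in 35S (-6.28 ± 0.92). XYP2, a xylogen-like protein, was at 13.3 and 18.1 CPM in pGL2 against 624 and 518 CPM in 35S (-5.18 ± 0.37). PAP2 (AT4G29080, also IAA27), an auxin-response repressor, was at 2.13 and 2.21 CPM in pGL2 against 80.6 and 70.0 CPM in 35S (-5.11 ± 0.51). The changes of ADF9, UBC17, RTFL9, GSTF4, SAH7 and UGE3 were -6.22, -5.36, -5.21, -5.07, -5.04 and -5.03.

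In the named genes MRD1 and NIC3 the levels across lines did not follow the tag promoter. MRD1 had the largest change of the 15 higher genes selected above, 5.78 ± 0.61, from 26.9 and 25.3 CPM in pGL2 against 0.469 and 0.47 CPM in 35S. It stayed at or under 0.559 CPM in all 6 libraries of the 35S line, and between 19.9 and 62.9 CPM in all 24 libraries of the other 4 Col-0 lines. In the 6 libraries labelled pGL2(pSCRBRI1), a bri1-116 line, it lay between 0.0525 and 0.973 CPM. GL2 itself was at 1.17 to 2.23 CPM in those 6 libraries, which the labels call epidermis, against 57.9 to 256 CPM in pGL2. NIC3, nicotinamidase 3, had the largest change of the 15 lower genes selected above, -8.79 ± 0.74, from 0.241 and 0.205 CPM in pGL2 against 103 and 99.1 CPM in 35S. It stayed at or under 0.723 CPM in all 6 pGL2 libraries, but was between 18.2 and 36.9 CPM in the 6 libraries of pGL2(pGL2BRI1), another line with the tag under the GL2 promoter. That line is not one of the Col-0 lines, so it differs from pGL2 in genotype as well. RPL18 (AT3G05590) was at 3066 and 2614 CPM in pGL2 against 10691 and 11904 CPM in 35S (-1.99 ± 0.44, adjusted p = 0.000415), and at 40820.0 to 84953 CPM in the 6 pBRN2 libraries. In the method that the labels cite, RPL18 carries the tag, so reads of the gene and of the transgene cannot be told apart.

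Lists of ion transport genes held both higher and lower members. The nutrient content of the growth medium is not given in the sources used here. Among 13 nitrate transport genes 6 were higher and 4 lower. NRT2:1 (NRT2.1; AT1G08090, chromosome 1, 2524076 to 2526164), the main high-affinity nitrate carrier, was at 64.3 and 115 CPM in pGL2 against 2.76 and 3.70 CPM in 35S (4.80 ± 0.83, adjusted p = 3.26e-05). Its partner protein NRT3.1 was at 1025 and 917 CPM in pGL2 against 130.3 and 132 CPM in 35S (2.89 ± 0.49, adjusted p = 1.96e-05). NRT1.1, the dual-affinity carrier and nitrate sensor, was at 1594 and 2176 CPM in pGL2 against 232 and 225 CPM in 35S (3.04 ± 0.34, adjusted p = 2.01e-08). In all 3 genes both pGL2 libraries exceeded both 35S libraries, although NRT2:1 differed between the pGL2 libraries. The vacuolar exchanger CLC-A and the efflux carrier NAXT1 were higher by 1.94 ± 0.28 and 3.07 ± 0.41, and the high-affinity carrier NRT2.4 by 3.72 ± 0.93. The lower genes were NRT1.5, which loads nitrate into the xylem, at 17.5 and 28.4 CPM in pGL2 against 266 and 253 CPM in 35S (-3.50 ± 0.44, adjusted p = 2.36e-07), NRT1.9, a carrier of phloem companion cells, at 1.75 and 1.15 CPM in pGL2 against 31.2 and 25.6 CPM in 35S (-4.28 ± 0.55, adjusted p = 3.24e-07), and the anion channel genes SLAH1 and SLAH3 (-3.59 ± 0.50 and -1.40 ± 0.28).

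Of 9 genes of ammonium and organic nitrogen uptake 6 were higher and 2 lower. AMT1;1 and AMT1;3, ammonium transporters of the root surface, were at 415 and 672 CPM in pGL2 against 47.5 and 46.4 CPM in 35S (3.53 ± 0.29, adjusted p = 5.98e-11) and at 1219 and 1378 CPM in pGL2 against 144 and 129 CPM in 35S (3.25 ± 0.47, adjusted p = 2.04e-06). AMT1;5, a close relative, passed at under 1 CPM. The urea carrier DUR3 was at 256 and 324 CPM in pGL2 against 26.2 and 25.3 CPM in 35S (3.49 ± 0.54, adjusted p = 5.7e-06) and the amino acid carrier LHT1 at 394 and 386 CPM in pGL2 against 122 and 116 CPM in 35S (1.71 ± 0.29, adjusted p = 1.42e-05). AMT1;2, which is known from the endodermis and cortex, was lower at 17.0 and 31.6 CPM in pGL2 against 98.9 and 107 CPM in 35S (-2.08 ± 0.85, adjusted p = 0.0456), and AAP1 was lower, with a change of -2.56 ± 0.39. Of the list, 1 gene was lower with RLE scaling or without any 1 of the 4 libraries. GSR2 (GLN1;2), a cytosolic glutamine synthetase, was higher at 11339 and 12684 CPM in pGL2 against 1757 and 1775 CPM in 35S (2.77 ± 0.43, adjusted p = 5.61e-06).

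Of 8 phosphate transport genes 5 were higher and 2 lower. PHT1;1, the main phosphate carrier of the root, was at 2445 and 3684 CPM in pGL2 against 230.2 and 260.1 CPM in 35S (3.64 ± 0.43, adjusted p = 5.12e-08), and PHT1;4 was at 229 and 322 CPM in pGL2 against 67.9 and 64.9 CPM in 35S (2.05 ± 0.38, adjusted p = 5.79e-05). PHF1, which brings these carriers to the plasma membrane, was higher by 1.53 ± 0.21. PHT1;1 and PHT1;2 are near-identical, so the counts may split their reads, and PHT1;2 stood at 4.5048 and 6.02 CPM in pGL2. PHT1;9 was higher by 3.80 ± 0.71. PHO1, which exports phosphate to the xylem, was lower at 11.6 and 14.7 CPM in pGL2 against 115 and 116 CPM in 35S (-3.14 ± 0.34, adjusted p = 1.54e-08), and its relative PHO1;H1 was lower, with a change of -4.65 ± 0.37. Of 9 sulfate transport genes 1 was higher, a smaller share than the 23.0 percent of all genes, and 3 were lower, with a median change of -1.28. The higher gene was SULTR1;2, the main uptake carrier, at 1187 and 1073 CPM in pGL2 against 109 and 127 CPM in 35S (3.26 ± 0.56, adjusted p = 2.18e-05). SULTR2;2, SULTR3;4 and SULTR3;5 were lower, with changes of -1.498 ± 0.37, -1.28 ± 0.43 and -4.16 ± 0.80. SULTR1;1, the carrier induced by sulfur shortage, was under 1 CPM in all 4 libraries and did not pass. With RLE scaling or DESeq2 the sulfate list had 2 higher genes in place of 1, and fits of the 4 libraries alone or of the Col-0 libraries of 0 h alone gave 5 lower genes in place of 3.

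AKT1, the inward channel of the root surface, was at 113 and 129.7 CPM in pGL2 against 40.1 and 45.7 CPM in 35S (1.499 ± 0.26, adjusted p = 2.23e-05), its silent partner subunit KAT3 at 128 and 166 CPM in pGL2 against 43.1 and 39.7 CPM in 35S (1.83 ± 0.25, adjusted p = 5.47e-07), and the calcium sensor CBL1, which acts on AKT1, at 51.7 and 54.1 CPM in pGL2 against 22.8 and 22.5 CPM in 35S (1.22 ± 0.17, adjusted p = 1.15e-06). CIPK23, the kinase of this module, was at 50.8 and 54.3 CPM in pGL2 against 50.8 and 42.3 CPM in 35S and did not pass (0.18 ± 0.21). SOS1, the sodium exporter, and HAK5, a high-affinity potassium carrier, were higher by 1.87 ± 0.30 and 2.597 ± 0.97. The outward channel SKOR, which releases potassium into the xylem, was lower at 1.51 and 1.5983 CPM in pGL2 against 24.0 and 21.6 CPM in 35S (-3.87 ± 0.44, adjusted p = 3.69e-08), and the sodium carrier HKT1 of the stele was lower, with a change of -3.30 ± 0.56. The plasma membrane proton pumps HA2 (AHA2) and HA1, which energise these carriers, were higher at 2893 and 4497 CPM in pGL2 against 676 and 757 CPM in 35S (2.37 ± 0.36, adjusted p = 2.91e-06) and 507 and 746 CPM in pGL2 against 154 and 190.0 CPM in 35S (1.86 ± 0.32, adjusted p = 2.09e-05). HA3 was lower, at 0.825 and 1.52 CPM in pGL2 against 12.0 and 13.7 CPM in 35S (-3.47 ± 0.52), and HA7 (-0.50 ± 0.43) passed as lower only when replicate 2 of pGL2 was left out.

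**Figure D2:**
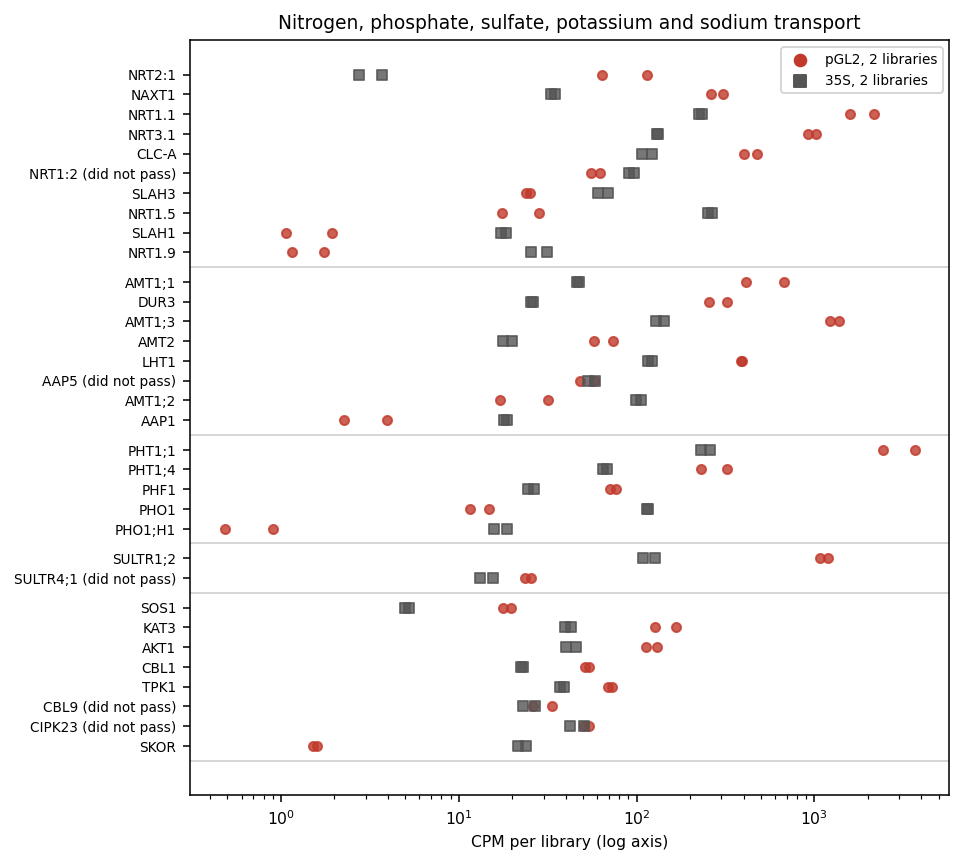
CPM in each of the 2 pGL2 and 2 35S libraries at 0 h (x axis, log scale) for nitrogen, phosphate, sulfate, potassium and sodium transport genes whose mean reached 8 CPM in either group (y axis, ordered by change within each of the 5 lists). NRT1.1, AMT1;3, PHT1;1 and SULTR1;2 lie to the right in pGL2, at 1073 CPM or more, whereas NRT1.5, PHO1 and SKOR lie to the left, at 28.4 CPM or less.

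Iron genes formed a mixed group. Of 26 tested 10 were higher and 3 lower, but 6 were higher without replicate 2 of pGL2 or without replicate 2 of 35S, and 6 with upper quartile scaling. Without replicate 1 of pGL2 11 were higher and 1 was lower. FIT1 (FRU), the bHLH factor that switches on iron uptake, was steady at 426 and 428 CPM in pGL2 against 78.3 and 81.5 CPM in 35S (2.42 ± 0.28, adjusted p = 4.69e-08). PDR9, which exports phenolic compounds, and F6'H1, which makes their coumarin precursor, were at 318 and 452 CPM in pGL2 against 68.3 and 60.3 CPM in 35S (2.58 ± 0.32, adjusted p = 1.55e-07) and 361 and 383 CPM in pGL2 against 96.9 and 90.0 CPM in 35S (1.99 ± 0.41, adjusted p = 0.000237). FRO2, the ferric reductase, was at 46.7 and 143 CPM in pGL2 against 45.7 and 41.5 CPM in 35S (1.12 ± 0.42, adjusted p = 0.0273), and only replicate 2 of pGL2 stood apart from the 35S level. IRT1, the ferrous iron carrier, was at 194 and 258 CPM in pGL2 against 179 and 95.9 CPM in 35S and did not pass (0.72 ± 0.60). CYP82C4, an oxidase of the iron shortage response, was at 9.49 and 57.1 CPM in pGL2 against 26.3 and 27.9 CPM in 35S, so the 2 pGL2 libraries fell on opposite sides of the 35S libraries. In all, 24 of the 26 genes were higher in replicate 2 than in replicate 1 of pGL2. Nicotianamine synthases differed among themselves, with NAS1 higher, at 279.8 and 425 CPM in pGL2 against 114 and 98.3 CPM in 35S (1.73 ± 0.48, adjusted p = 0.0037), and NAS4 lower, at 1.99 and 4.67 CPM in pGL2 against 40.4 and 37.8 CPM in 35S (-3.56 ± 0.98, adjusted p = 0.00395). The citrate exporter FRD3 and the stele carrier YSL2, which act in iron movement within the root, were lower, with changes of -3.17 ± 0.29 and -2.33 ± 0.70.

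Zinc, copper and boron genes were higher in 8 of 16 cases and lower in 2 (1 without replicate 1 of pGL2). The zinc-regulated carriers ZIP2, ZIP3 and ZIP5 were higher, with ZIP3 at 498 and 566 CPM in pGL2 against 63.0 and 48.5 CPM in 35S (3.25 ± 0.31, adjusted p = 9.61e-10), ZIP2 at 911 and 1151 CPM in pGL2 against 175 and 146 CPM in 35S (2.68 ± 0.29, adjusted p = 1.68e-08) and ZIP5 at 81.9 and 83.6 CPM in pGL2 against 12.1 and 11.7 CPM in 35S (2.80 ± 0.29). ZIP1 was lower at 0.653 and 1.64 CPM in pGL2 against 12.3 and 13.0 CPM in 35S (-3.48 ± 0.37, adjusted p = 7.92e-09). The boron channel NIP5;1, which takes up boric acid, and the exporter BOR2 were higher by 0.99 ± 0.24 and 1.13 ± 0.28. Aquaporins were higher in 11 of 19 cases and lower in 4 (3 with RLE scaling or DESeq2, and fewer than 4 without any 1 of the 4 libraries). PIP1;5 and PIP2;4, water channels of the plasma membrane, were at 2110.1 and 1965 CPM in pGL2 against 392.08 and 390.2 CPM in 35S (2.38 ± 0.26, adjusted p = 1.48e-08) and 1469.8 and 1439.7 CPM in pGL2 against 302 and 274 CPM in 35S (2.34 ± 0.27, adjusted p = 3.15e-08). The tonoplast channels TIP2;1 and TIP4;1 were at 2193 and 2319 CPM in pGL2 against 548 and 457 CPM in 35S (2.17 ± 0.28) and 641 and 674 CPM in pGL2 against 174 and 151 CPM in 35S (2.02 ± 0.21). PIP2;1 (-0.60 ± 0.25), PIP2;5 and PIP2;8 were lower, as was PIP2;3, whose sequence is nearly that of PIP2;2, a higher gene, so that these 2 calls are uncertain.

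Several genes of surface lipid synthesis and export were enriched. Of 32 tested cutin and wax genes (42 in the list) 13 were higher and 1 was lower, with a median change of 0.58. CER4, a reductase that makes primary alcohols, was at 104 and 124 CPM in pGL2 against 11.9 and 12.5 CPM in 35S (3.22 ± 0.29, adjusted p = 5.1e-10). The anchored lipid transfer proteins LTPG1 and LTPG2, needed for wax export, were at 114 and 102 CPM in pGL2 against 14.8 and 17.4 CPM in 35S (2.74 ± 0.35, adjusted p = 2.13e-07) and 142 and 157 CPM in pGL2 against 28.1 and 28.8 CPM in 35S (2.39 ± 0.39, adjusted p = 1.21e-05). CER6, which lengthens wax fatty acids, and the exporter ABCG11 were at 3.71 and 4.26 CPM in pGL2 against 0.209 and 0.157 CPM in 35S (4.40 ± 1.15) and 1.34 and 1.48 CPM in pGL2 against 0.0261 and 0.0626 CPM in 35S (4.90 ± 0.97), low levels that rest on few counts in 35S. The MYB factors MYB30, MYB94 and MYB96, which activate wax genes, were higher, MYB30 at 74.2 and 76.0 CPM in pGL2 against 15.3 and 16.5 CPM in 35S (2.24 ± 0.35, adjusted p = 5.09e-06). LACS2, an acyl-CoA synthetase for cutin, was the lower gene (-2.01 ± 0.82, adjusted p = 0.0446). That call was lost with RLE scaling, without a filter, with the replicate block, with a term for the read length note and without any 1 of the 4 libraries, and upper quartile scaling gave 2 lower genes. With the 4 libraries alone 9 genes of the list were lower, and 5 with the Col-0 libraries of 0 h alone. GPAT4 and GPAT6, cutin acyltransferases, did not pass (-1.67 ± 0.92 and -1.37 ± 0.84).

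The HD-ZIP IV factors that specify the protoderm were present at low levels. ATML1 was at 0.757 and 0.451 CPM in pGL2 against 0.0522 and 0.0626 CPM in 35S and PDF2 at 1.27 and 1.35 CPM in pGL2 against 0.104 and 0.125 CPM in 35S, and both were higher (3.32 ± 1.04 and 3.48 ± 0.98). HDG1 and HDG7, of the same class, were higher at 4.95 and 3.69 CPM in pGL2 against 1.33 and 1.72 CPM in 35S and 5.05 and 7.01 CPM in pGL2 against 1.98 and 2.10 CPM in 35S. In all, 5 of 8 tested protoderm genes were higher, 3 without replicate 1 of either group or with the stricter filter. The other 7 of the 15 listed had at most 1 count in any of the 4 libraries and were not tested. Of 12 lipid transfer proteins 8 were higher and 2 lower, with a median change of 3.32, or 2.57 when genes with a group at 0 were set at the bound that 3 counts a library give. LTPG1 and LTPG2 were counted here as well as in the cutin and wax list. AT3G22600, which RefSeq lists under a name of this family, was lower at 62.9 and 90.3 CPM in pGL2 against 819 and 755 CPM in 35S (-3.36 ± 0.90), and AT1G18280 was lower at 0.344 and 0.246 CPM in pGL2 against 1.15 and 1.00 CPM in 35S (-1.84 ± 0.52). Summed over the list, the level was 446 and 451 CPM in pGL2 against 889.8 and 829 CPM in 35S, most of the latter from AT3G22600. Of the inner lipid barrier, suberin, 7 of 20 genes were lower and 2 higher. The feruloyl transferase ASFT was at 9.59 and 17.7 CPM in pGL2 against 75.5 and 87.6 CPM in 35S (-2.58 ± 1.07, adjusted p = 0.0479). No suberin gene was lower without replicate 1 of pGL2, 4 were without replicate 2 of pGL2, and 2 without either 35S library, without a filter or with a term for the read length note. Fits of the 4 libraries alone or of the Col-0 libraries of 0 h alone gave 17 and 15 lower genes. In all, 19 of the 20 were higher in replicate 2 than in replicate 1 of pGL2, as were the endodermis markers. KCS20 and ABCG1 were the higher genes (1.41 ± 0.38 and 0.85 ± 0.31), and 1 gene was higher with upper quartile scaling or without either 35S library or replicate 2 of pGL2.

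Most listed genes of primary wall synthesis were higher, each by a small change. Of 10 cellulose synthesis genes 9 were higher and none lower, with a median change of 1.03 against -0.12 for all genes. CESA1, CESA3 and CESA6, the subunits of the primary wall complex, were at 321 and 429 CPM in pGL2 against 174 and 153 CPM in 35S (1.19 ± 0.18, adjusted p = 3.45e-06), 525 and 664 CPM in pGL2 against 248 and 209.6 CPM in 35S (1.38 ± 0.19, adjusted p = 9.8e-07) and 267 and 382 CPM in pGL2 against 129 and 130.4 CPM in 35S (1.33 ± 0.24, adjusted p = 3.13e-05). CSI1, which links the complex to microtubules, was higher by 1.75 ± 0.26. Xyloglucan and pectin synthesis genes were higher in 10 of 12 cases (median 0.73), led by the methyltransferase-like QUA2 (1.36 ± 0.17) and the glucan synthase CSLC4 (1.30 ± 0.22). The wall-sensing kinases FER, THE1 and HERK1 were higher by 1.26 ± 0.20, 1.33 ± 0.23 and 1.74 ± 0.22, with FER at 185 and 195 CPM in pGL2 against 84.3 and 74.7 CPM in 35S.

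Wall-loosening families split into members enriched and members depleted. Expansins were higher in 5 of 25 cases (8 with the 4 libraries alone) and lower in 11. EXPA17 was at 478 and 419 CPM in pGL2 against 49.6 and 54.3 CPM in 35S (3.11 ± 0.49, adjusted p = 6.2e-06) and EXPA8 at 43.5 and 33.4 CPM in pGL2 against 7.51 and 7.89 CPM in 35S (2.32 ± 0.41), whereas EXPB3 was at 14.1 and 21.1 CPM in pGL2 against 240.1 and 215 CPM in 35S (-3.69 ± 0.78, adjusted p = 0.000319) and EXPA15 at 11.9 and 16.7 CPM in pGL2 against 162 and 133 CPM in 35S (-3.37 ± 0.59). XTH enzymes, which cut and rejoin xyloglucan, were higher in 10 of 30 cases and lower in 15. XTH17 and XTH18, which are close in sequence, were at 987 and 1166 CPM in pGL2 against 147 and 159 CPM in 35S (2.81 ± 0.35) and 1112 and 1198 CPM in pGL2 against 213 and 232 CPM in 35S (2.37 ± 0.39). XTH15 was at 7.22 and 9.9996 CPM in pGL2 against 214 and 198 CPM in 35S (-4.58 ± 0.33, adjusted p = 8.88e-12) and XTH20 at 3.68 and 6.80 CPM in pGL2 against 125 and 119.7 CPM in 35S (-4.55 ± 0.79). Arabinogalactan and fasciclin-like proteins were higher in 12 of 44 cases and lower in 21. AGP30, a root protein, was at 1429.7 and 1145 CPM in pGL2 against 348 and 295 CPM in 35S (2.00 ± 0.62) and FLA9 at 2202 and 1825 CPM in pGL2 against 872 and 773 CPM in 35S (1.29 ± 0.24). FLA11 and FLA12, known from secondary walls, were lower, with changes of -4.04 ± 0.34 and -3.95 ± 0.46, with FLA11 at 5.30 and 4.75 CPM in pGL2 against 88.5 and 77.1 CPM in 35S. Among the pectin methylesterases, which remove methyl groups from pectin, PME2 was at 142 and 158 CPM in pGL2 against 20.3 and 21.6 CPM in 35S (2.84 ± 0.38, adjusted p = 6.67e-07) and PME3 at 23.7 and 38.4 CPM in pGL2 against 426 and 413 CPM in 35S (-3.76 ± 0.33, adjusted p = 3.44e-10), opposite in direction. The list held 5 higher and 4 lower genes of 11, with 2 lower under RLE scaling or without replicate 1 of either group.

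**Figure D3:**
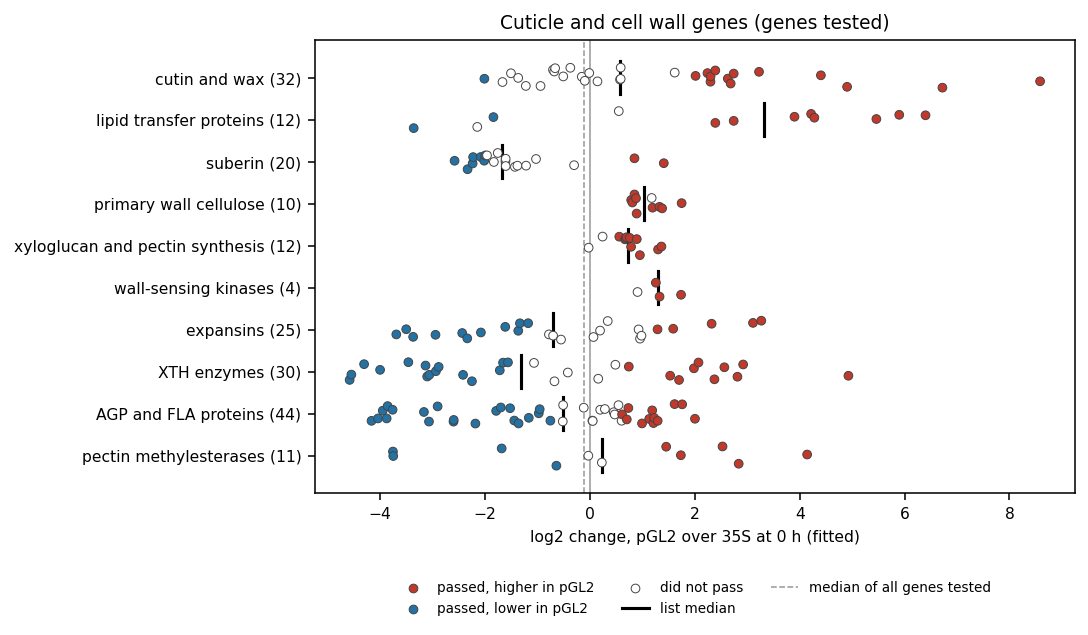
Fitted log2 change of pGL2 over 35S at 0 h (x axis) for each tested gene of 10 cuticle and wall lists (y axis, number tested in parentheses). Filled points passed, open points did not, and black bars are list medians. The cellulose and xyloglucan lists have medians of 1.03 and 0.73, whereas expansins, XTH enzymes and arabinogalactan proteins spread over both sides. Points beyond 6 have both 35S libraries at 0 counts, so their position depends on the fit.

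Most listed genes of immune perception were higher. Of 19 genes 13 were higher and 3 lower, with a median change of 1.25. CERK1 and LYK4, LysM kinases of chitin perception, were at 104 and 85.1 CPM in pGL2 against 22.1 and 19.1 CPM in 35S (2.20 ± 0.22, adjusted p = 2.86e-09) and 43.2 and 31.8 CPM in pGL2 against 6.31 and 5.64 CPM in 35S (2.65 ± 0.37, adjusted p = 8.87e-07). FLS2, the flagellin receptor, was low but higher in pGL2, at 2.61 and 2.83 CPM in pGL2 against 0.339 and 0.532 CPM in 35S (2.64 ± 0.53, adjusted p = 0.00013). The shared co-receptor BAK1 and the kinase BIK1 were at 150.1 and 169 CPM in pGL2 against 71.2 and 65.4 CPM in 35S (1.22 ± 0.15) and 52.2 and 46.2 CPM in pGL2 against 12.2 and 12.7 CPM in 35S (1.98 ± 0.38). AT4G08850, a receptor kinase gene of the list, was at 93.1 and 99.6 CPM in pGL2 against 18.2 and 19.8 CPM in 35S (2.34 ± 0.34). Both receptors of the danger peptide Pep differed in direction, with PEPR1 at 30.2 and 31.2 CPM in pGL2 against 10.4 and 10.117 CPM in 35S (1.58 ± 0.22, adjusted p = 7.96e-07) and PEPR2 at 0.894 and 0.943 CPM in pGL2 against 3.81 and 3.29 CPM in 35S (-1.95 ± 0.33, adjusted p = 1.62e-05). The peptide precursor genes PROPEP1 and PROPEP2 were lower (-2.30 ± 0.61 and -3.22 ± 0.51).

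Of 13 salicylic acid and pathogenesis-related genes 10 were higher and 2 lower. HCHIB, a basic chitinase, was at 105 and 91.7 CPM in pGL2 against 12.9 and 14.6 CPM in 35S (2.84 ± 0.33, adjusted p = 3.55e-08). NPR1, the coactivator of the salicylic acid response, was at 39.9 and 39.2 CPM in pGL2 against 13.8 and 11.8 CPM in 35S (1.63 ± 0.22). ICS1, which starts salicylic acid synthesis, was lower, as was its activator SARD1 (-2.83 ± 0.91). ICS1 was under 2 CPM in all 4 libraries, and PR1, PR5, BGL2 and PDF1.2 had no counts in any of them. Jasmonate genes were higher in 10 of 18 cases and lower in 1, in small steps (median 0.72). The repressor JAZ1 was at 117.09 and 84.6 CPM in pGL2 against 36.7 and 41.3 CPM in 35S (1.37 ± 0.22) and VSP1 at 36.0 and 29.0 CPM in pGL2 against 4.82 and 5.32 CPM in 35S (2.68 ± 0.95). This count was 5 without replicate 1 of either group and 6 without replicate 2 of 35S, and 2 genes were lower with upper quartile scaling. The count of higher salicylic acid genes was 6 without either 35S library, and 1 gene of that list was lower without replicate 1 of either group.

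Lists of defence compounds differed in their counts of higher and lower genes, and the difference between lists was not tested. All 6 genes of the endoplasmic reticulum bodies, which store glucosidases in the root surface and seedlings, were higher. PYK10, the main glucosidase, was at 9699.9 and 9667 CPM in pGL2 against 2748 and 1995 CPM in 35S (2.03 ± 0.45, adjusted p = 0.000426), and its binding lectin PBP1 was at 13201 and 13503 CPM in pGL2 against 2884 and 2698 CPM in 35S (2.26 ± 0.45, adjusted p = 0.000121). NAI2, needed to form the bodies, was at 2262 and 2717 CPM in pGL2 against 325 and 336 CPM in 35S (2.91 ± 0.54, adjusted p = 6.22e-05), and NAI1, the bHLH factor that activates them, at 337 and 263 CPM in pGL2 against 53.0 and 50.6 CPM in 35S (2.53 ± 0.42). BGLU21 and BGLU22, near-copies of PYK10 and of each other, were higher by 1.49 ± 0.41 and 2.44 ± 0.46.

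Of 14 listed genes of aliphatic glucosinolate synthesis 10 were tested, and these were all lower, with a median change of -3.38. MAM3, which lengthens the methionine chain, was at 6.43 and 12.3 CPM in pGL2 against 116.83 and 106 CPM in 35S (-3.58 ± 0.75, adjusted p = 0.000303), and the activator MYB28 was at 2.92 and 3.81 CPM in pGL2 against 28.0 and 28.7 CPM in 35S (-3.08 ± 0.46). Of the 10, 4 were lower also against the mean of the other 3 fractions. Of 19 genes of indole glucosinolate synthesis and activation 4 were higher, near the share of all genes, and 8 were lower, with a median change of -0.60. CYP79B2 and CYP79B3, which convert tryptophan, were lower at 10.7 and 14.9 CPM in pGL2 against 108 and 109 CPM in 35S (-3.08 ± 0.34, adjusted p = 1.69e-08) and 11.5 and 16.7 CPM in pGL2 against 119.8 and 119 CPM in 35S (-3.08 ± 0.36, adjusted p = 5.01e-08). GSTF9, a glutathione transferase counted in this pathway, was at 298 and 335 CPM in pGL2 against 4058 and 3574 CPM in 35S (-3.59 ± 0.42, adjusted p = 4.96e-08). The other lower genes were MYB122, CYP81F1, MYB34, SUR1 and SOT16, with changes of -2.57, -2.45, -1.55, -1.47 and -1.40. CYP83B1, the enzyme after CYP79B2 and CYP79B3, was at 162 and 174 CPM in pGL2 against 324 and 315 CPM in 35S and did not pass (-0.92 ± 0.42). Higher were PEN2, the glucosidase that activates indole glucosinolates, at 274 and 311 CPM in pGL2 against 77.3 and 71.5 CPM in 35S (1.97 ± 0.23, adjusted p = 3.26e-08), PEN3, the exporter of the products, at 265 and 352 CPM in pGL2 against 55.3 and 55.4 CPM in 35S (2.48 ± 0.38, adjusted p = 3.86e-06), and the modifying enzymes IGMT1 and CYP81F3 (2.25 ± 0.58 and 1.64 ± 0.33). The 2 pGL2 libraries differed for IGMT1 (361 and 197 CPM).

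Of 5 genes of the thalianol and marneral triterpene clusters 4 were higher and none was lower. THAS1, THAH and THAD1, which make and oxidise thalianol, were at 739 and 975 CPM in pGL2 against 58.4 and 59.8 CPM in 35S, 712 and 585 CPM in pGL2 against 138 and 116 CPM in 35S and 1141 and 1206 CPM in pGL2 against 145 and 136 CPM in 35S (3.86 ± 0.51, 2.35 ± 0.53 and 3.06 ± 0.52). Of the marneral cluster CYP71A16 was higher (1.21 ± 0.36) and MRN1, marneral synthase, did not pass (0.30 ± 0.90). In camalexin synthesis PAD3, the last enzyme, was lower at 1.2036 and 1.52 CPM in pGL2 against 21.2 and 20.3 CPM in 35S (-3.93 ± 0.56, adjusted p = 1.64e-06), and the activator WRKY33 was higher at 46.1 and 34.1 CPM in pGL2 against 13.4 and 13.4 CPM in 35S (1.58 ± 0.29). Flavonoid and phenylpropanoid genes were lower in 9 of 14 cases, with chalcone synthase TT4 at 75.3 and 119 CPM in pGL2 against 522 and 489 CPM in 35S (-2.38 ± 0.45, adjusted p = 7.52e-05) and PAL1 at 30.2 and 62.1 CPM in pGL2 against 302 and 285 CPM in 35S (-2.67 ± 0.52). MYB12 and PAL2 were higher by under 1 on the log2 scale, calls that were lost with upper quartile scaling and without either 35S library or replicate 2 of pGL2. The MYB12 call was also lost without replicate 1 of pGL2.

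**Figure D4:**
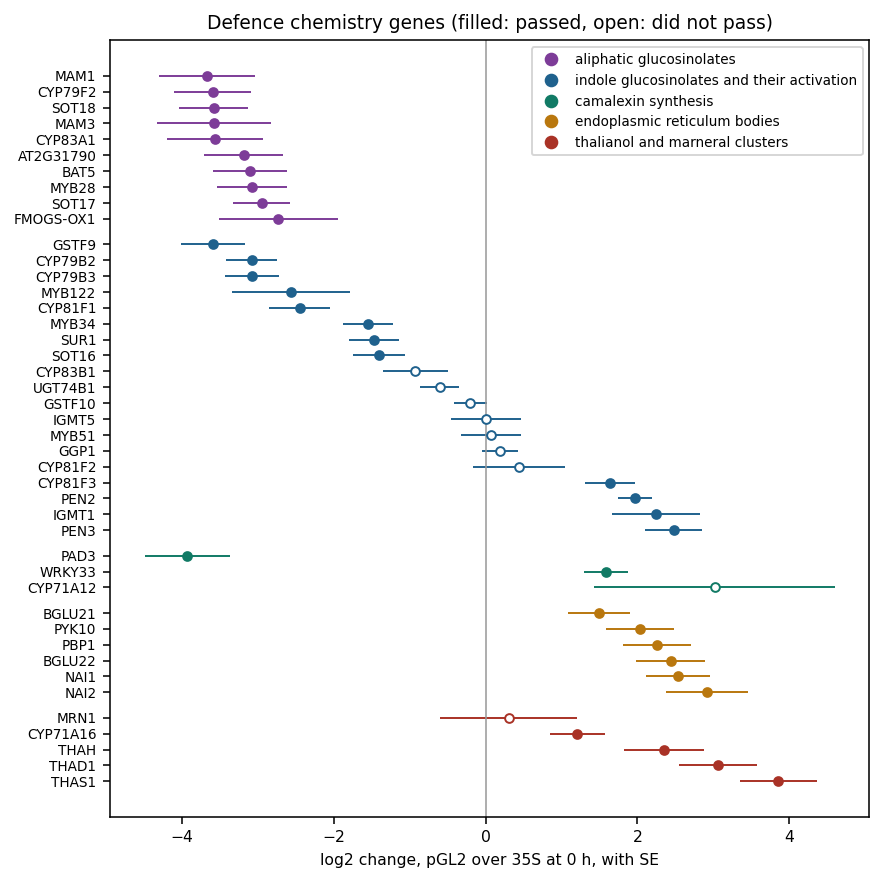
Fitted log2 change of pGL2 over 35S at 0 h with its SE (x axis) for each tested gene (y axis) of 5 lists of defence chemistry, shown by colour. Filled points passed and open points did not. All 10 aliphatic glucosinolate genes lie left of 0, all 6 genes of the endoplasmic reticulum bodies right of 0, and the indole glucosinolate genes run from -3.59 for GSTF9 to 2.48 for PEN3.

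Transcription factors were grouped by symbol or synonym, so a family below holds only the genes named after it. WRKY factors were higher in 32 of 62 cases and lower in 10, with a median change of 1.11. WRKY31 was at 33.9 and 27.1 CPM in pGL2 against 3.31 and 2.91 CPM in 35S (3.29 ± 0.57, adjusted p = 2.66e-05) and WRKY29, which acts downstream of flagellin perception, at 39.2 and 26.9 CPM in pGL2 against 3.57 and 5.32 CPM in 35S (2.90 ± 0.54, adjusted p = 5.92e-05). WRKY43 was at 16.0 and 44.4 CPM in pGL2 against 4.33 and 4.10 CPM in 35S (2.84 ± 0.79), and its 2 pGL2 libraries lay far apart. WRKY54, WRKY61 and WRKY35 were higher by 2.28 ± 0.42, 2.21 ± 0.38 and 2.20 ± 0.30. WRKY21 was the most depleted member that passed, at 1.34 and 1.31 CPM in pGL2 against 19.9 and 15.7 CPM in 35S (-3.74 ± 0.54).

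Apart from bZIP factors, the families below had more lower than higher members, as did all genes tested (25.9 percent lower, 23.0 percent higher). Of 85 MYB factors 37 were lower and 15 higher (median -1.35, or -0.97 with groups at 0 set at their bound). FLP, a regulator of stomatal divisions, was at 1.41 and 2.17 CPM in pGL2 against 33.4 and 30.8 CPM in 35S (-4.17 ± 0.35, adjusted p = 1.05e-10), and MYB46, an activator of secondary walls, at 0.481 and 0.82 CPM in pGL2 against 8.24 and 9.87 CPM in 35S (-3.81 ± 0.38). Of 81 NAC factors 32 were lower and 18 higher. NAC097 and NAC094 were lower (-4.85 ± 0.45 and -4.31 ± 0.63), whereas NAC080 and NAC1, a factor of lateral root formation, were higher (2.38 ± 0.49 and 2.25 ± 0.49), NAC1 at 97.5 and 62.7 CPM in pGL2 against 16.2 and 17.6 CPM in 35S. Zinc finger factors, which include DOF and IDD proteins, were lower in 22 of 33 cases (median -2.72). OBP3, a DOF factor, was at 1.2036 and 1.35 CPM in pGL2 against 41.6 and 38.7 CPM in 35S (-4.97 ± 0.39, adjusted p = 3.67e-11), and ZFP3 and ZFP4 were lower, with changes of -4.08 ± 0.73 and -3.83 ± 0.45. The 3 higher members were ZAT6, RHL41 and ZAT11, with ZAT11 at 58.8 and 47.7 CPM in pGL2 against 13.5 and 15.3 CPM in 35S (1.88 ± 0.38), and 5 were higher with RLE scaling or DESeq2 and 8 with the 4 libraries alone.

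GATA factors were lower in 15 of 25 cases, homeobox factors in 24 of 57, LBD factors in 8 of 24 and MADS factors in 14 of 38. The higher members numbered 3, 13, 2 and 4. TCP14 and TCP15, close relatives that promote cell division, were lower at 1.72 and 1.43 CPM in pGL2 against 30.0 and 33.5 CPM in 35S (-4.32 ± 0.68) and 0.86 and 0.697 CPM in pGL2 against 22.1 and 21.5 CPM in 35S (-4.79 ± 0.65). TCP3, TCP4 and PTF1 were the higher members of that family (3 higher and 7 lower of 16), all at under 5 CPM. The bHLH list had 3 higher and 6 lower of 18, the ERF list 3 and 7 of 25. Median changes of the bHLH, ERF and TCP lists were -0.33, -0.13 and -0.15, against -0.12 for all genes. The bZIP list had 15 higher and 12 lower of 38. TGA9 and TGA10 were its most enriched members (1.899 ± 0.34 and 1.88 ± 0.37), and bZIP3 was at 2.34 and 3.98 CPM in pGL2 against 69.1 and 78.6 CPM in 35S (-4.55 ± 0.78). The counts of several families rested on single libraries. Without replicate 1 of 35S, replicate 2 of 35S, replicate 1 of pGL2 and replicate 2 of pGL2 in turn, higher MYB factors numbered 8, 9, 10 and 9, higher bZIP factors 8, 8, 9 and 14, lower MADS factors 12, 9, 7 and 7, lower GATA factors 9, 13, 11 and 10, and lower WRKY factors 6, 8, 6 and 5. In the same order, higher homeobox factors numbered 6, 9, 8 and 11, lower TCP factors 4, 4, 3 and 5, lower ERF factors 4, 4, 6 and 4, and lower LBD factors 7, 6, 5 and 4. Lower MYB factors numbered 33, 33, 24 and 34, higher GATA factors 1, 1, 2 and 1, and higher LBD factors 1, 1, 1 and 2 (1 with upper quartile scaling).

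**Figure D5:**
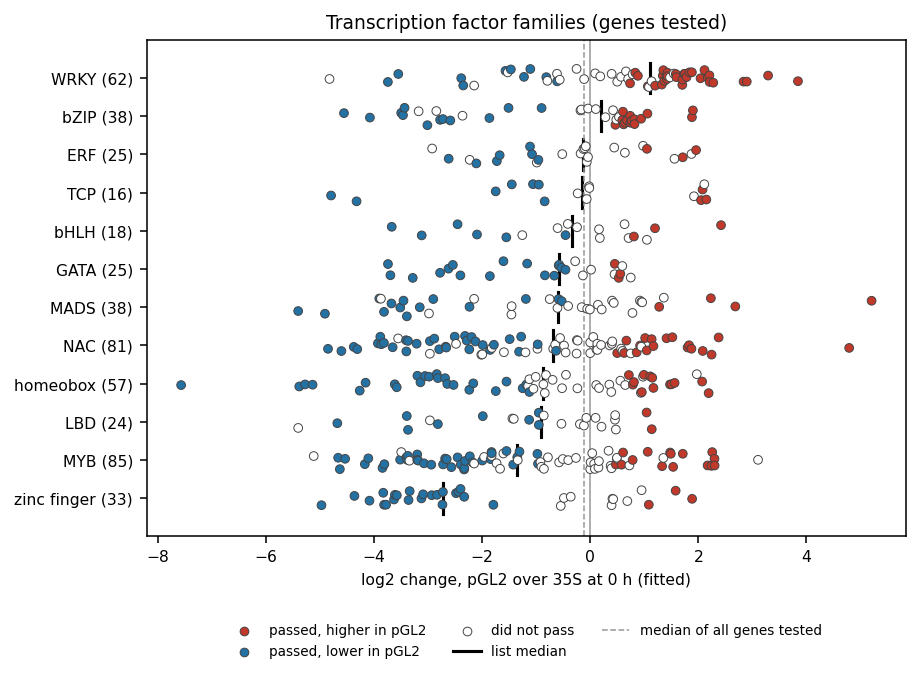
Fitted log2 change of pGL2 over 35S at 0 h (x axis) for each tested gene of 12 transcription factor families named by symbol (y axis, number tested in parentheses). Filled points passed, open points did not, black bars are family medians and the dashed line is the median of all genes. WRKY factors have a median of 1.11 and zinc finger factors of -2.72.

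Also described were, among called genes with a RefSeq symbol, the 10 in each direction with the largest difference of mean CPM, which is not corrected for gene length. PBP1, GSR2 and PYK10 had means 10561, 10246 and 7312 CPM above those of 35S, followed by MLP34, a major latex-like protein, at 5846 and 4493 CPM in pGL2 against 735 and 779 CPM in 35S (2.77 ± 0.38), and TIP2;2. AIR1, first found as an auxin-induced gene of root cultures, was at 3818 and 3199.5 CPM in pGL2 against 528 and 423 CPM in 35S (2.88 ± 0.43, adjusted p = 3.01e-06). The glycolytic enzymes GAPC1 and FBA8 were higher by 1.49 ± 0.22 and 1.45 ± 0.25. The lower genes included RPL18 and GSTF9, LCR68, a defensin-like peptide, at 66.4 and 91.1 CPM in pGL2 against 2586 and 2213 CPM in 35S (-4.93 ± 0.31, adjusted p = 9.98e-13), and the peroxidase PRXR1, at 523 and 481 CPM in pGL2 against 1973 and 1997 CPM in 35S (-1.98 ± 0.26). The extensin-like ELP, the gibberellin-responsive GASA1 and the copper chaperone CCH were lower, with changes of -3.87 ± 0.48, -2.00 ± 0.35 and -2.81 ± 0.38. ROC5, GRP7 and CCoAOMT1 completed the 10 (-0.75, -1.03 and -1.91).

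The same lines were read again in separate libraries after 3 and 8 h of BL, a treatment given to both. Of the 4838 higher genes 4056 were higher at 3 h (83.8 percent of these and 80.8 percent of the 5019 higher genes at 3 h) and 3865 at 8 h (79.9 percent, and 76.3 percent of 5066). Of the 5431 lower genes 4551 were lower at 3 h (83.8 percent, and 77.2 percent of 5897) and 4491 at 8 h (82.7 percent, and 72.4 percent of 6201). In the opposite direction 1 gene passed at 3 h and 6 passed at 8 h. The background at 3 h was 23.9 percent higher and 28.1 percent lower (52.0 percent in all), and at 8 h 24.1 and 29.5 percent (53.7 percent in all). No gene (0.0 percent) had a change at 3 h that differed from that at 0 h by the edgeR test, although 819 had an unadjusted p under 0.05 and DESeq2 called 4. At 8 h 3 genes did (0.0143 percent), 1 with a larger value (0.00476 percent) and 2 with a smaller one (0.00953 percent), while 1733 had an unadjusted p under 0.05 and DESeq2 called 58. Named genes of the surface kept their direction with other sizes, LTP6 at 5.46, 3.01 and 2.76 and NRT2:1 at 4.80, 3.76 and 2.24 at 0, 3 and 8 h, differences between times that did not pass. LP1 was the one gene of the 15 named as most enriched that did not pass at 8 h.

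Against the mean of the pBRN2, pSCR and pSHR fractions at 0 h, 5978 genes were higher (28.5 percent) and 5710 lower (27.2 percent), 55.7 percent in all. This comparison shares the pGL2 libraries with the main one, so the values stand side by side and are not a repeat. Of the 15 genes named as most enriched 14 were higher there too, the exception being MRD1. Of the 15 named as most depleted 14 were lower, the exception being RGF2. CER4 stood out by 6.68 ± 0.23, XTH17 by 6.74 ± 0.26, NRT2:1 by 6.58 ± 0.59 and PHT1;1 by 5.92 ± 0.30. The iron genes had 19 of 26 higher against these fractions, where 10 were higher against the whole root, with IRT1 at 3.78 ± 0.45 (adjusted p = 5.12e-08).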

How the data were processed

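Polysome-bound RNA of 48 root libraries was read, and 4 libraries form the comparison. The deposited values are raw read counts for each gene in whole numbers. The authors aligned 50 bp single-end reads of a kit that does not mark strand to TAIR10 with TopHat2 2.0.9 and counted them with HTSeq 0.5.3p3, after FastQC 0.10.1, per the submitters' processing notes and the labels. Among the 4 libraries only replicate 2 of pGL2 is described as trimmed from 51 bases. Counting without strand mixes reads of genes that overlap. Near-identical copies (AMT1;3 and AMT1;5, NAS1 and NAS2, XTH17 and XTH18, BGLU21 and BGLU22, IGMT1) may share or lose reads, so their values are uncertain. Genes were filtered with filterByExpr (20995 left, at least 99.98 percent of counts), scaled with TMM and tested with edgeR 4.0.16 in R 4.3.3, quasi-likelihood, robust, 1 mean for each of 24 groups, all 48 libraries in the fit. Totals ran from 20556381 to 37685541 counts. On simulated data for this comparison (20995 genes) 44 percent of 100 2-fold and all 100 of the 4-fold changes were recovered. No other gene was changed there, whereas 48.9 percent of genes passed in the data. The changed genes were drawn from those above a count minimum, and other genes had 1 mean for all groups. These shares hold for that setting only and do not give the power of the calls above. DESeq2 1.42.0 and other settings were alternatives. Symbols came from the RefSeq table (10689 of 33715 entries). Members and the 31 gene lists (426 loci) and 18 symbol-based families were chosen with earlier results of these data known. Lists could share members, as with PHO1 and SKOR, which were both stele markers and transport genes. Named were the 15 genes each way of largest change (8 CPM or more in the higher group, 4 counts or more in every library, groups apart), 10 each way among transcription factors, 10 each way by CPM difference, and list members. Apart from list members, only genes with a RefSeq symbol could be named. No set test was run. The p-values measure the spread between libraries, which may be technical. That spread was estimated over all 24 groups of 2, which include BL-treated groups and other lines. Fitted alone, the 4 compared libraries gave 6340 higher and 6618 lower genes.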

Additional observations from a re-analysis of the deposited data

Results flagged for a closer look

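Between 0 and 8 h 3 genes had a change of pGL2 over 35S that differed by a test of the difference itself (edgeR's quasi-likelihood test, BH over 20995 genes), with BL given to both lines at 8 h. No gene passed without replicate 2 of 35S at 8 h or replicate 1 of pGL2 at 0 h, 1 passed without either 35S library of 0 h, 33 passed without replicate 1 of 35S at 8 h and 29 without replicate 1 of pGL2 at 8 h. AT5G12050 rose by 2.83 ± 0.44 in that change (adjusted p = 0.00836), from 1.45 ± 0.206 CPM in pGL2 against 11.3 ± 1.52 CPM in 35S at 0 h to 6.62 ± 1.58 against 7.26 ± 1.63 CPM at 8 h (SD, n = 2). LEA14, a late embryogenesis abundant protein, shifted by -1.64 ± 0.30 (adjusted p = 0.0378), from 19.3 ± 1.97 against 103 ± 4.72 CPM to 6.27 ± 0.384 against 105 ± 0.781 CPM. AT3G23170 shifted by -3.06 ± 0.49 (adjusted p = 0.00836), from 3.05 ± 0.257 against 5.14 ± 1.19 CPM to 0.302 ± 0.137 against 4.30 ± 0.36 CPM. The 8 h libraries differ from the 0 h ones in BL, elapsed time and handling, which cannot be told apart.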

How the results depend on the processing

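The counts of higher and lower genes at 0, 3 and 8 h, and against the other 3 fractions, stayed within 1.5 times the reported value under every alternative run, except that a 2-fold minimum left 2851 higher genes at 0 h. The share of calls that were higher at 0 h (47.1 percent, 95 percent Wilson interval 46.15 to 48.08, counting error only) was 51.9 percent with RLE scaling, 38.03 with upper quartile scaling, 52.0 with DESeq2, 49.3 without a filter, 49.7 with a stricter filter, 48.9 with the 4 libraries alone, 49.1 with the 10 Col-0 libraries of 0 h alone, and 40.0 with a 2-fold minimum. Leaving out 1 library at a time gave 44.5 to 50.1 percent. Genes whose change differed between 0 and 3 h numbered 0 and became 4 with DESeq2. Between 0 and 8 h they numbered 3, with 5 under RLE scaling, 58 under DESeq2 and 0 to 33 when 1 library was left out. The replicate numbers were not shown to pair the samples (correlation of deviations -0.0544 over 11159 genes), and the replicate block gave 4826 higher and 5440 lower genes at 0 h. For the 69 named genes 890 values under alternatives kept direction and side of the threshold, and 7 no longer passed. For the named genes and the list genes outside the transcription factor families, 6914 values kept their side of the threshold, 152 newly passed and 278 no longer passed. No gene that passed in either of the compared fits changed direction. A change of direction where neither fit passed was counted among the values that kept their side. Leaving out a library leaves a lone sample that is assumed to vary like the other groups. With 2 libraries a group, 44 percent of simulated 2-fold changes passed, in a setting with far fewer changed genes than passed here.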
